A study of Mus musculus with 10 samples.

Results

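The mitochondrial genome of the mouse is a small circle of DNA that encodes protein subunits of the respiratory chain, the rRNAs of the mitochondrial ribosome and the tRNAs needed to translate those subunits. The transcripts described here are the rows of the deposited expression table whose gene name starts with mt-, which are 37 of 55858 rows. They are 13 protein genes, 2 rRNA genes and 22 tRNA genes, all single-exon genes on chromosome M of GRCm38 (mm10). Of the 13 protein genes, 7 encode subunits of complex I (NADH dehydrogenase), 1 of complex III (cytochrome bc1), 3 of complex IV (cytochrome c oxidase) and 2 of complex V (ATP synthase). By strand, 28 of the 37 lie on the plus strand and 9 on the minus strand, namely mt-Nd6 and 8 tRNA genes. The label fits the rows: each of the 37 was annotated as mitochondrial protein, rRNA or tRNA gene.

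Hearts of 5 cKO and 5 control mice were compared at postnatal day 10. The cKO mice were given tamoxifen under the skin at 0.1 mg/g for 2 days from postnatal day 0, to delete Chmp4b, a subunit of the membrane-cutting ESCRT-III complex, and the control mice were given corn oil. Both groups carried the same genotype, written MCM; Chmp4bF/F in the labels, so that floxed Chmp4b and the MCM allele were shared, and tamoxifen and the deletion cannot be told apart. The labels do not spell out MCM or the cells in which it acts, and a whole heart holds cells of many types.

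Mitochondrial transcription starts in the control region and yields long RNAs that span most of a strand. The tRNAs that lie between the other genes are cut out, which frees the rRNAs and mRNAs, and most mRNAs are then polyadenylated. The rRNA genes lie next to the start of transcription on the plus strand, ahead of a site where the factor MTERF1 binds. Heart muscle is rich in mitochondria, and mitochondrial mRNA makes up a large share of its polyadenylated RNA.

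A pair of features of the sequences bears on how the rows can be read, and the stretches that show them are printed here from the GENCODE M21 transcripts on GRCm38. The first is short or overlapping genes. The gene mt-Atp8 (chrM:7766-7969, plus strand) is 204 bases long and shares its last 43 bases, in capitals, with the start of mt-Atp6 (chrM:7927-8607). The gene mt-Nd4l (chrM:9877-10173, plus strand, last 60 bases shown) shares its last 7 bases, in capitals, with mt-Nd4.
mt-Atp8: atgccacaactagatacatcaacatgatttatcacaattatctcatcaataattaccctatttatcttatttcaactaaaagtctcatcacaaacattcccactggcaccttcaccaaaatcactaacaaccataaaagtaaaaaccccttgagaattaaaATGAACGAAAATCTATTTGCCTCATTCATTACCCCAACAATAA
mt-Nd4l, last 60 bases: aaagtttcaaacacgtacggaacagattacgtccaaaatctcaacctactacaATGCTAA

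The second is the presence of near copies in the nuclear genome. A search of all annotated transcripts found 16 nuclear genes that matched a mitochondrial gene at 90% identity or more over at least 80% of their length, and all 16 were rows of the table. None of the 16 matched an rRNA gene. Of these, 7 lay side by side on the minus strand of chromosome 1 (chr1:24611535-24616197) as unprocessed pseudogenes. The copy Gm28661 held 681 of the 684 bases of mt-Co2 without a mismatch and lacked only the closing TAA, in capitals below. Gm28437 held 783 of the 784 bases of mt-Co3, also without a mismatch. Gm29216 matched 483 bases of mt-Co1 with 1 difference, A1066T, in which the base of mt-Co1 comes first and positions are counted from the first base of mt-Co1. Gm28438 matched 345 bases of mt-Nd3 with 1 difference, T3C, counted from the first base of mt-Nd3. Gm28438 falls outside the 3 copies with the highest mean TPM and was chosen after its values were seen. In the last pairs the capital marks the base that differs.
mt-Co2, last 60 bases: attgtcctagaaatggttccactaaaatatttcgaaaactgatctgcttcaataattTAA
Gm28661, last 57 bases: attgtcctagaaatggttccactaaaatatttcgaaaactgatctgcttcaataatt
mt-Co1, bases 1063 to 1096: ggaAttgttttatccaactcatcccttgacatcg
Gm29216, bases 10 to 43: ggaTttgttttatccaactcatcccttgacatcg
mt-Nd3, bases 1 to 33: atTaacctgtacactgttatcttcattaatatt
Gm28438, bases 1 to 33: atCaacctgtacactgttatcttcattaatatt
A read that lies in a stretch without a difference can be placed on either row. Values of mt-Co2, mt-Co3, mt-Nd3 and mt-Co1 are thus uncertain on their own and are given below with and without the copies. The same holds in principle for mt-Atp6, mt-Nd4l and mt-Nd4. Their chromosome 1 copies Gm10925, Gm10222 and Gm28439 matched 678, 294 and 876 bases without a mismatch. The rows of these copies averaged 0, 0 and 0.879 TPM.

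Values are TPM, that is transcripts per 1000000, which are per length and have the same total in each library. The mt- rows held 39.4% ± 2.34 of all TPM in cKO hearts and 55.4% ± 3.96 in control hearts (SD, n = 5 each). With the near copies added, the shares were 43.9% ± 2.23 in cKO hearts and 61.9% ± 4.24 in control hearts. Of the 10 rows with the highest mean TPM in the whole table, 9 were mt- rows and 1 was the copy Gm28661. Because each library has a fixed total, a lower mitochondrial share raises the TPM of nuclear genes, so differences were tested as deposited, relative to the median gene (after a size factor per library) and relative to the summed mt- TPM. Tests were made with limma on log2(value + 1) over the 13282 genes that reached 1 TPM in 5 or more of the libraries, with Benjamini-Hochberg adjustment over all of them, and a gene was called at an adjusted p under 0.05. A log2 difference is cKO minus control throughout. The median log2 difference of all tested genes was 0.63 as deposited, 0.01 relative to the median gene and 1.06 relative to summed mt- TPM.

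As deposited, the mRNAs and the rRNAs of the mitochondrion differed in direction, though the rise of mt-Rnr2 (0.48) lay below the median of all tested genes (0.63). Relative to the median gene mt-Rnr2 was at -0.27, with the sign of the protein genes, and was not called. All 13 protein genes, both rRNA genes and 3 of the 22 tRNA genes passed the filter on low values. As deposited, 10 of the 13 protein genes fell and both rRNA genes rose in cKO hearts. Of all tested genes, 3.46% were called lower and 76.5% higher in cKO hearts under that scaling. Relative to the median gene, where 20.8% of all tested genes were called lower and 20.8% higher, all 13 protein genes fell, 1 rRNA gene rose and 1 tRNA gene fell. Relative to summed mt- TPM, where 0.994% were called lower and 89.9% higher, both rRNA genes rose and no protein gene was called in either direction (0 also at an unadjusted p under 0.05 in limma), with log2 differences of the protein genes between -0.14 and 0.30. No protein gene was thus shown to depart from the others. Without a filter on low values the model called 1 mt- row higher and 0 lower as deposited and 1 higher and 5 lower relative to the median gene, of 25 rows tested. The log2 differences of the rows that lost their call did not change (mt-Nd1 -0.469, mt-Co1 -0.479 and mt-Nd4 -0.565 as deposited), while the adjusted p of the 10 protein genes called as deposited ran between 0.0610 for mt-Nd5 and 0.784 for mt-Atp8, and the cause was not tested.

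**Figure D1:**
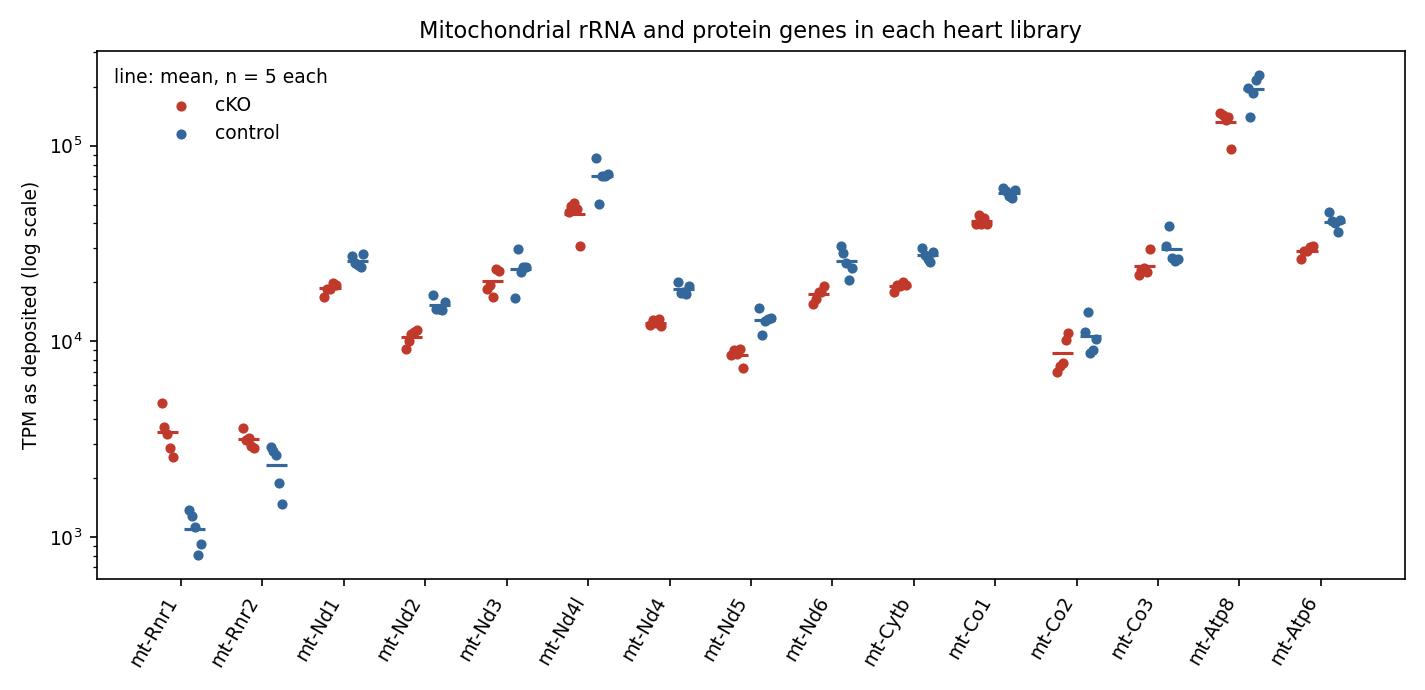
TPM as deposited (log scale) of the 2 mitochondrial rRNA genes and 13 protein genes, grouped by complex, with 1 point per heart library, cKO left (red) and control right (blue), and a line at each group's mean (n = 5 each). The cKO points of mt-Rnr1 lie above all control points, while for mt-Nd1, mt-Nd2, mt-Nd4, mt-Nd5, mt-Nd6, mt-Cytb, mt-Co1 and mt-Atp6 all cKO points lie below. The share of all tested genes whose groups lie apart was not computed. As deposited, limma called 76.5% of them higher and 3.46% lower.

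**Figure D2:**
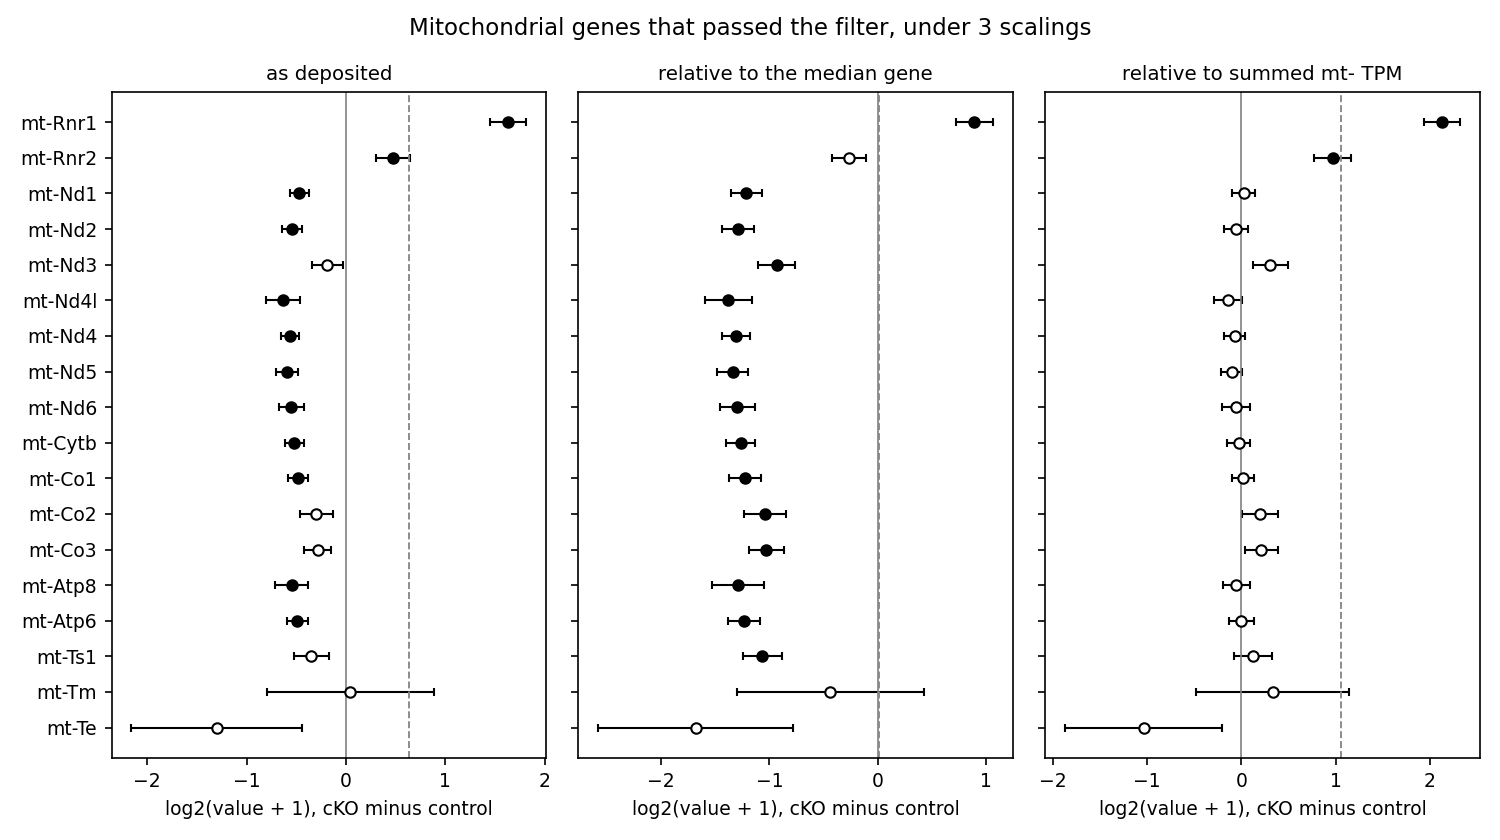
Log2 difference (cKO minus control, on the log2(value + 1) scale) with its SE for the 18 mt- rows that passed the filter, under 3 scalings. Filled points have an adjusted p under 0.05 (limma), the solid line is at 0 and the dashed line is at the median of all tested genes: the protein genes form a column in each panel, and mt-Rnr1 and mt-Rnr2 lie to its right.

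The rRNAs of the mitochondrial ribosome were the only mt- rows called higher relative to summed mt- TPM in cKO hearts, joined by mt-Co3 and mt-Nd3 when control replicate 6 was left out. The gene mt-Rnr1 (chrM:70-1024, plus strand, 955 bases) encodes the 12S rRNA of the small subunit. Its TPM in cKO hearts was 4835, 3637, 3374, 2837 and 2558 in replicates 1, 3, 5, 6 and 7. In control hearts its TPM was 1370, 1279, 1130, 812 and 925 in replicates 4, 6, 8, 9 and 13. Every cKO library lay above every control library, and how common this was among all tested genes was not computed. The rise was 1.63 ± 0.18 on the log2 scale as deposited (± SE, limma adjusted p = 5.15e-06), 0.89 ± 0.17 relative to the median gene (adjusted p = 0.00151) and 2.13 ± 0.19 relative to summed mt- TPM (adjusted p = 2.19e-07). Its share of summed mt- TPM averaged 0.875% ± 0.215 in cKO hearts and 0.200% ± 0.0473 in control hearts (SD, n = 5 each).

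The gene mt-Rnr2 (chrM:1094-2675, plus strand, 1582 bases) encodes the 16S rRNA of the large subunit and lies downstream of mt-Rnr1 on the same primary RNA. Its TPM in cKO hearts was 3628, 3153, 3202, 2918 and 2869, in the order of replicates given above. In control hearts it was 2904, 2750, 2623, 1894 and 1484. The groups overlapped as deposited, since the highest control library reached 2904 TPM. As deposited mt-Rnr2 rose by 0.48 ± 0.17 (± SE, limma adjusted p = 0.0205), a call that was lost without cKO replicate 1 (adjusted p = 0.0507) or control replicate 9 (adjusted p = 0.0524). Relative to the median gene its log2 difference was -0.27 ± 0.16 (adjusted p = 0.195), and it was called lower without control replicate 13 (-0.38, adjusted p = 0.0480). Relative to summed mt- TPM it rose by 0.97 ± 0.19 (adjusted p = 0.000255). So mt-Rnr2 rose within the mitochondrial RNA, while its direction against the other genes of the cell depended on the scaling.

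The 2 rRNAs did not rise by the same factor. The ratio of mt-Rnr1 to mt-Rnr2 TPM was 1.33, 1.15, 1.05, 0.972 and 0.892 in cKO libraries 1, 3, 5, 6 and 7. In control libraries 4, 6, 8, 9 and 13 the ratio was 0.472, 0.465, 0.431, 0.429 and 0.623. A scaling common to both genes cancels in this ratio, and the groups did not overlap. The difference of mean log2 ratios was 1.16 (two-sided exact permutation test, p = 0.00794, the smallest that 5 against 5 can give, and 0.0397 after Benjamini-Hochberg adjustment over the 5 ratios tested). With medians in place of means the difference was 1.18 and the adjusted p was 0.238. Together the rRNAs made up 1.68% ± 0.286 of summed mt- TPM in cKO hearts and 0.625% ± 0.169 in control hearts (SD, n = 5 each), with no overlap between groups.

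**Figure D3:**
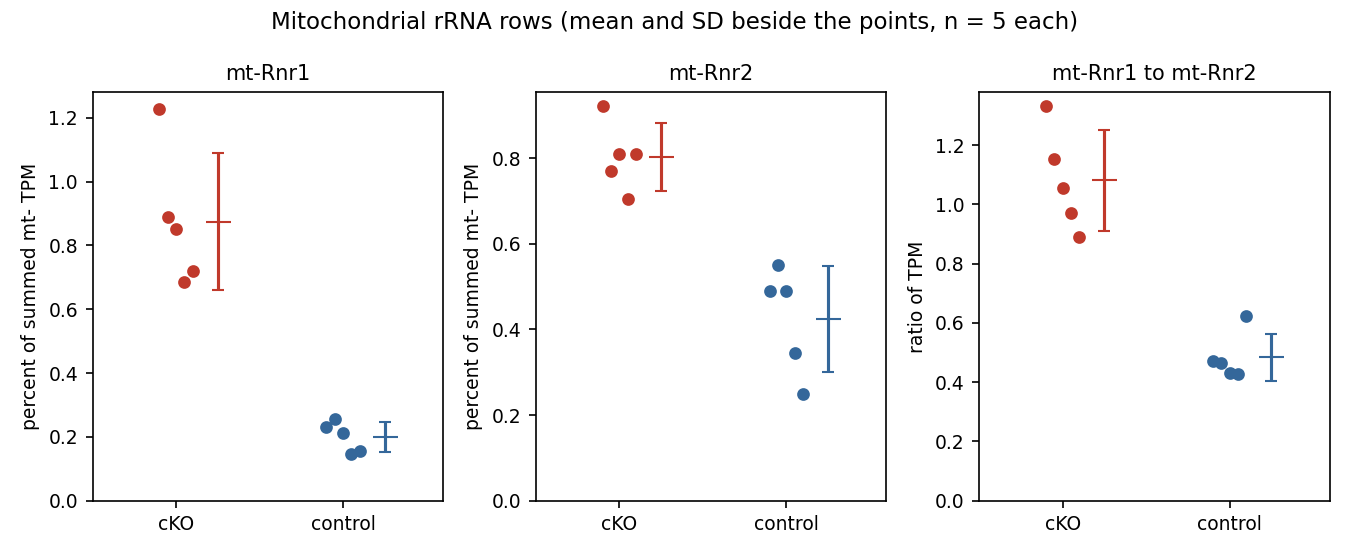
Share of summed mt- TPM (percent) of mt-Rnr1 and mt-Rnr2, and the ratio of their TPM, with 1 point per heart library and the mean and SD beside the points (cKO left, control right, n = 5 each). In all 3 panels the 5 cKO points lie above the 5 control points, and the ratio lies between 0.892 and 1.33 in cKO hearts and between 0.429 and 0.623 in control hearts.

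The RNA input was total RNA, and the sources used here do not say whether rRNA was removed or poly(A) RNA selected, so the rRNA rows measure what passed that step. The level of other structural RNAs is given beside it. Of the 6 structural and nuclear RNAs of a list that were in the table, Neat1, a nuclear lncRNA, averaged 451.5 ± 124 TPM in cKO hearts and 153.4 ± 24.2 TPM in control hearts, and Malat1 averaged 155.3 ± 13.2 and 125.8 ± 24.98 TPM in cKO and control hearts. The other 4, Rn7sk, Rn7s1, Rmrp and Rpph1, were not called as deposited. Relative to the median gene, Neat1 was called higher and Malat1, Rn7sk and Rpph1 lower, and the summed TPM of the 6 ran between 6195 and 13593 in cKO hearts and between 5813 and 11365 in control hearts. Their part in the rRNA result was not tested.

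Complex I is the entry point of electrons from NADH, and its 7 mitochondrial genes encode the membrane arm that pumps protons. As deposited, 6 of the 7 fell, by 0.47 to 0.64 on the log2 scale, and relative to the median gene all 7 did. The gene mt-Nd1 (chrM:2751-3707) had a TPM of 16900, 18498, 18421, 19887 and 19413 in cKO hearts and of 27128, 25258, 24588, 24101 and 27806 in control hearts, with the replicates in the order given above. It fell by 0.47 ± 0.10 as deposited (± SE, limma adjusted p = 0.00067). The gene mt-Nd4 (chrM:10167-11544) had a TPM of 12150, 12813, 12338, 13071 and 11969 in cKO hearts and of 20199, 17565, 17946, 17444 and 19142 in control hearts. It fell by 0.56 ± 0.09 as deposited (adjusted p = 9.71e-05) and by 1.31 ± 0.13 relative to the median gene (adjusted p = 1.03e-05). For both genes the groups did not overlap. How common this was among all tested genes was not computed, here or for the mitochondrial genes below.

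Of the other complex I genes, mt-Nd2, mt-Nd5 and mt-Nd4l also fell as deposited, mt-Nd6 is given below and mt-Nd3 was not called. The gene mt-Nd2 averaged 10545 ± 945 TPM in cKO hearts and 15386 ± 1191 TPM in control hearts, and mt-Nd5 averaged 8502 ± 697 and 12880 ± 1439 TPM in cKO and control hearts (SD, n = 5 each). The gene mt-Nd4l, the shortest complex I gene at 297 bases, averaged 44826 ± 8082 TPM in cKO hearts and 69617 ± 12894 TPM in control hearts. Its groups overlapped, because cKO replicates 1, 3, 5 and 6 lay between 45819 and 50628 TPM and control replicate 6 at 50089 TPM. The ratio of mt-Nd4l to its overlapping neighbour mt-Nd4 averaged 3.59 ± 0.594 in cKO hearts and 3.76 ± 0.540 in control hearts, and the difference of -0.07 on the log2 scale had an adjusted p of 0.754 (exact permutation test). The gene mt-Nd3 averaged 20300 ± 2854 TPM in cKO hearts and 23325 ± 4608 TPM in control hearts, and its difference of -0.19 ± 0.15 as deposited was not called (adjusted p = 0.274).

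Complex III and the minus strand each have 1 mitochondrial protein gene. The gene mt-Cytb (chrM:14145-15288), which encodes cytochrome b, the catalytic core of complex III, averaged 19167 ± 756 TPM in cKO hearts and 27549 ± 1811 TPM in control hearts (SD, n = 5 each). It fell by 0.52 ± 0.10 as deposited (± SE, limma adjusted p = 0.000251), and the groups did not overlap. The gene mt-Nd6 (chrM:13552-14070), the only protein gene on the minus strand, averaged 17391 ± 1458 TPM in cKO hearts and 25664 ± 4002 TPM in control hearts. It fell by 0.55 ± 0.13 as deposited (adjusted p = 0.0013). The ratio of mt-Nd6 to mt-Nd5, neighbours on opposite strands, averaged 2.06 ± 0.327 in cKO hearts and 2.01 ± 0.388 in control hearts, and the difference of 0.05 on the log2 scale had an adjusted p of 0.754 (exact permutation test). The sources used here do not give the strand setting of the counting, so RNA copied from the other strand may be part of the mt-Nd6 value.

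Complex IV passes electrons to oxygen, and its catalytic core is encoded by mt-Co1, mt-Co2 and mt-Co3. The gene mt-Co1 (chrM:5328-6872) had a TPM of 39756, 44042, 39599, 42838 and 39543 in cKO replicates 1, 3, 5, 6 and 7. In control replicates 4, 6, 8, 9 and 13 it had 60515, 58302, 55186, 53726 and 58991 TPM. It fell by 0.48 ± 0.10 as deposited (± SE, limma adjusted p = 0.000717) with no overlap between groups. The rows of mt-Co2 and mt-Co3 were not called as deposited, at -0.30 ± 0.16 (adjusted p = 0.109) and -0.28 ± 0.14 (adjusted p = 0.0738), and both were called lower without cKO replicate 7 (adjusted p = 0.0373 and 0.0249).

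The nuclear copies changed these 2 results. The row of mt-Co2 held 8675 ± 1794 TPM in cKO hearts and 10645 ± 2144 TPM in control hearts, while the row of its copy Gm28661 held more, at 32788, 34095, 33450, 33769 and 35213 TPM in the cKO libraries and 51236, 47405, 47502, 42845 and 51097 TPM in the control libraries. The copy took 79.7% ± 2.98 of the sum of the rows in cKO hearts and 81.9% ± 2.83 in control hearts (SD, n = 5 each). The sum of both rows was 42539 ± 2550 TPM in cKO hearts and 58663 ± 4501 TPM in control hearts, without overlap. On that sum mt-Co2 fell by 0.46 ± 0.11 as deposited (limma adjusted p = 0.00131).

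For mt-Co3, the copy Gm28437 took 25.7% ± 5.32 of the sum in cKO hearts and 31.8% ± 7.63 in control hearts. The sum of mt-Co3 and its copy was 32415 ± 2102 TPM in cKO hearts and 43257 ± 4559 TPM in control hearts, and it fell by 0.41 ± 0.11 (limma adjusted p = 0.00389). With all copies added to their mitochondrial genes, a setting chosen after seeing the data, 12 of the 18 mt- rows were called lower and 2 higher as deposited (3.47% and 76.5% of all tested genes), and 14 lower and 1 higher relative to the median gene (20.8% and 20.8%). The only protein gene not called as deposited was then mt-Nd3, at -0.26 ± 0.17 (adjusted p = 0.158). The near copies together held 4.50% ± 0.367 of all TPM in cKO hearts and 6.46% ± 0.411 in control hearts, without overlap.

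The copies of mt-Co1 and mt-Nd3 were uneven between libraries of a group. The row of Gm29216 held 709, 560, 72.9, 4004 and 8108 TPM in cKO libraries 1, 3, 5, 6 and 7, and 14.0, 7207, 5.15, 2.21 and 25 TPM in control libraries 4, 6, 8, 9 and 13. The row of Gm28438 was above 0 in cKO replicate 6 (550.5 TPM) and in control replicates 9 and 13 (4977 and 2356 TPM), and listed at 0 in the other 7 libraries. Replicates with high Gm29216 were found in both groups. With the TPM of its copies added, mt-Co1 held 43848 ± 3636 TPM in cKO hearts and 58796 ± 4659 TPM in control hearts (SD, n = 5 each), without overlap, and fell by 0.42 (limma adjusted p = 0.00311). Gm29216 is shorter than mt-Co1, so that sum mixes values per different lengths.

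**Figure D4:**
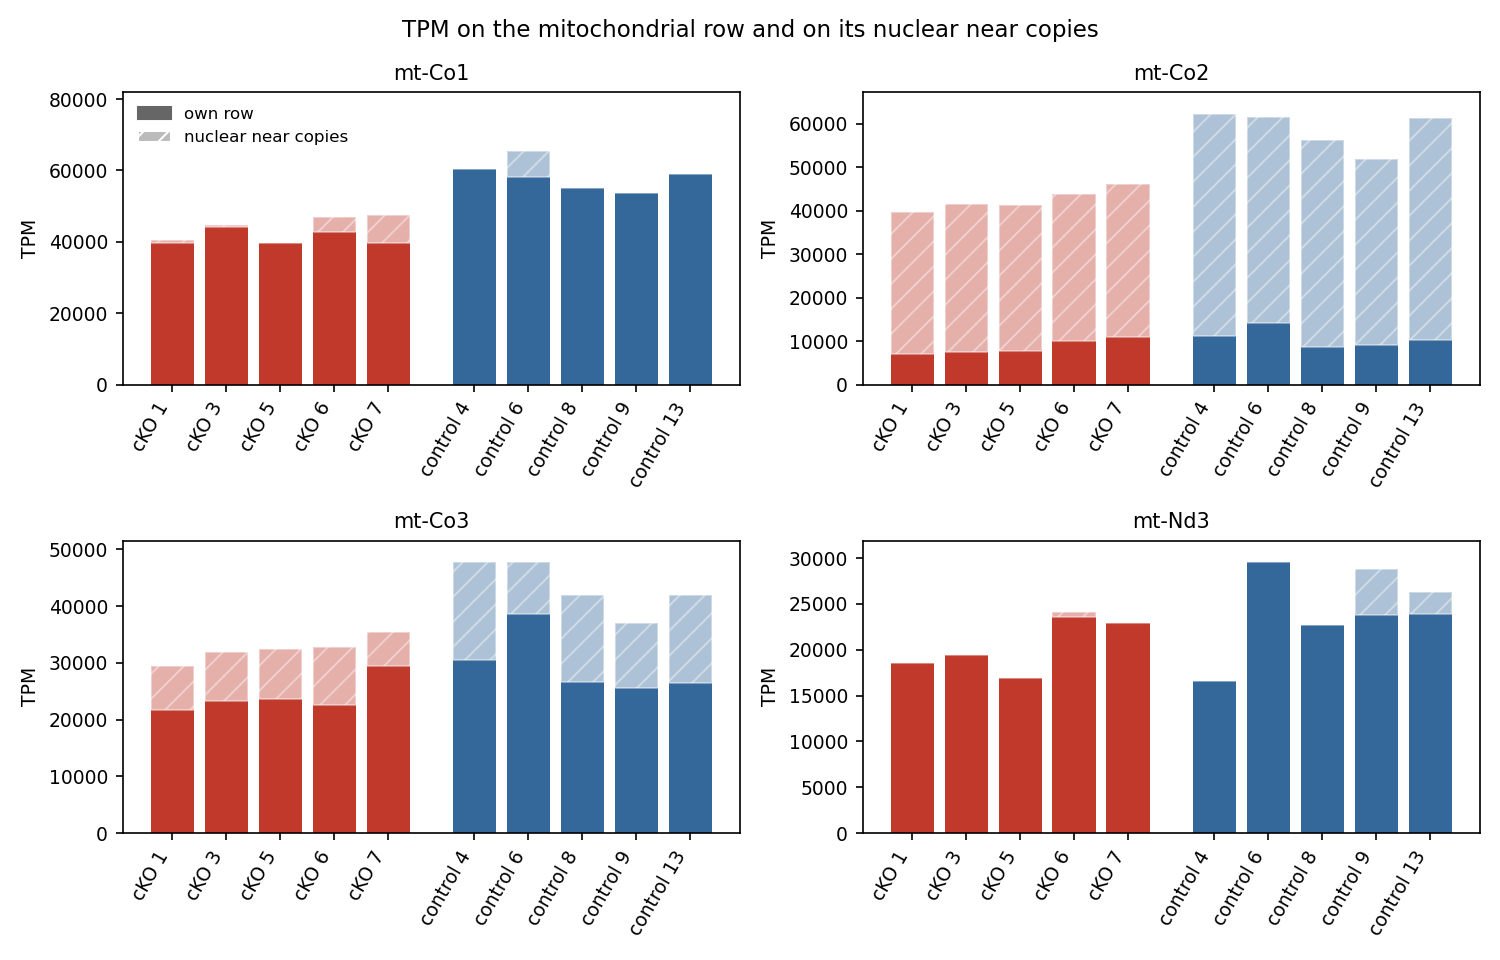
TPM as deposited on the mitochondrial row (solid) and on its nuclear near copies (hatched, stacked on top) for mt-Co1, mt-Co2, mt-Co3 and mt-Nd3, with 1 bar per heart library, cKO left (red) and control right (blue). For mt-Co2 the hatched part is the larger in each library, and the summed bars of mt-Co2 and mt-Co3 are lower in all cKO libraries than in any control library.

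Complex V makes ATP, and mt-Atp6 and mt-Atp8 encode subunits of its membrane part from 1 shared mRNA. The gene mt-Atp6 had a TPM of 26339, 28878, 28938, 30403 and 30805 in cKO hearts and of 45790, 41147, 40114, 36058 and 41594 in control hearts, with the replicates in the order given above. It fell by 0.49 ± 0.11 as deposited (± SE, limma adjusted p = 0.00083). The gene mt-Atp8 held 14.6%, 14.4%, 13.4%, 14.0% and 9.60% of all TPM in cKO libraries, against 19.6%, 14.0%, 18.6%, 21.5% and 23.0% in control libraries. Control replicate 6 lay within the cKO range. Its fall of 0.55 ± 0.17 as deposited was called (adjusted p = 0.0095).

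As a share of summed mt- TPM, mt-Atp8 held 33.4% ± 3.79 in cKO hearts and 34.8% ± 4.54 in control hearts (SD, n = 5 each), more than any other mt- row in both groups, and the groups overlapped. The ratio of mt-Atp8 to mt-Atp6 averaged 4.58 ± 0.901 in cKO hearts and 4.77 ± 1.02 in control hearts, and the difference of -0.06 on the log2 scale had an adjusted p of 0.754 (exact permutation test). The ratio of mt-Atp6 to mt-Co3, its neighbour downstream, averaged 1.21 ± 0.108 in cKO hearts and 1.41 ± 0.203 in control hearts. Its log2 difference of -0.21 had an adjusted p of 0.318, and an adjusted p of 0.0397 (difference -0.31) without control replicate 6. With the copy of mt-Co3 added, the difference was -0.08 (adjusted p = 0.238).

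The share of mt-Atp8 depended strongly on the division by length. TPM divides fragments by a length, which was read from low values of genes with 1 annotated transcript and at least 700 bases. Their length was shortened by a mean fragment, chosen per library to give a high share of whole fragments, within 0.03. That mean was 304 to 338 bases in cKO libraries and 292 to 368 bases in control libraries, and between 86.0% and 88.4% of those values then came out whole. A gene shorter than a typical fragment is then divided by the few positions that a short fragment could take. For mt-Atp8 this effective length was estimated at 33.3 to 35.9 bases in cKO libraries and 33.0 to 40.9 bases in control libraries, against 204 annotated bases. For mt-Co1 it was 1207 to 1241 bases in cKO libraries and 1177 to 1253 bases in control libraries, against 1545 annotated bases.

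Multiplied back into fragments, the make-up of the mitochondrial RNA looked different. The gene mt-Atp8 held 2.93% ± 0.51 of the estimated fragments on mt- rows in cKO hearts and 3.36% ± 0.57 in control hearts (SD, n = 5 each). By fragments mt-Co1 came first, with 32.6% ± 0.99 in cKO hearts and 33.2% ± 0.33 in control hearts, and mt-Cytb followed with 10.2% ± 0.20 and 10.7% ± 0.12 in cKO and control hearts. The gene mt-Nd4l held 1.41% ± 0.25 and 1.65% ± 0.32 in cKO and control hearts, against 11.3% ± 1.57 and 12.5% ± 1.67 of summed mt- TPM. Effective lengths of short genes were fitted again on genes of like length, with a tolerance of 0.06. For mt-Atp8 these were 10 to 19 genes per library, of which 76.5% to 100% came out whole in cKO libraries and 57.1% to 93.8% in control libraries. For mt-Nd4l the whole share was 67.2% to 81.3% in cKO libraries and 52.5% to 75.4% in control libraries. The fragment shares of both genes are therefore estimates.

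The fragment scale is a rescaling of the same TPM, so it is no second line of support for the rRNA rise. There mt-Rnr1 held 1.43% ± 0.41 in cKO hearts and 0.33% ± 0.06 in control hearts, and mt-Rnr2 held 2.59% ± 0.32 in cKO hearts and 1.39% ± 0.35 in control hearts (SD, n = 5 each). With the copies counted, mt-Co2 held 9.02% ± 0.58 of fragments in cKO hearts and 8.86% ± 0.51 in control hearts, against 2.05% ± 0.43 and 1.80% ± 0.34 from its own row in cKO and control hearts. The estimated fragments on mt- rows numbered 2048384 to 2785170 in cKO libraries and 3541021 to 4907255 in control libraries. These numbers rest on a constant fitted per library and grow with sequencing depth, which is not given. They therefore do not compare the amount of mitochondrial RNA between the groups. With each TPM multiplied by the annotated gene length, the mt- rows held 10.8% ± 0.643 of the sum in cKO hearts and 19.6% ± 2.29 in control hearts. That sum covers only the 92.1% of rows matched to GENCODE M21, and it is no fragment share, since annotated and effective lengths differ. The size of the mitochondrial share, but not the direction of its difference, thus depended on the weighting by length.

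**Figure D5:**
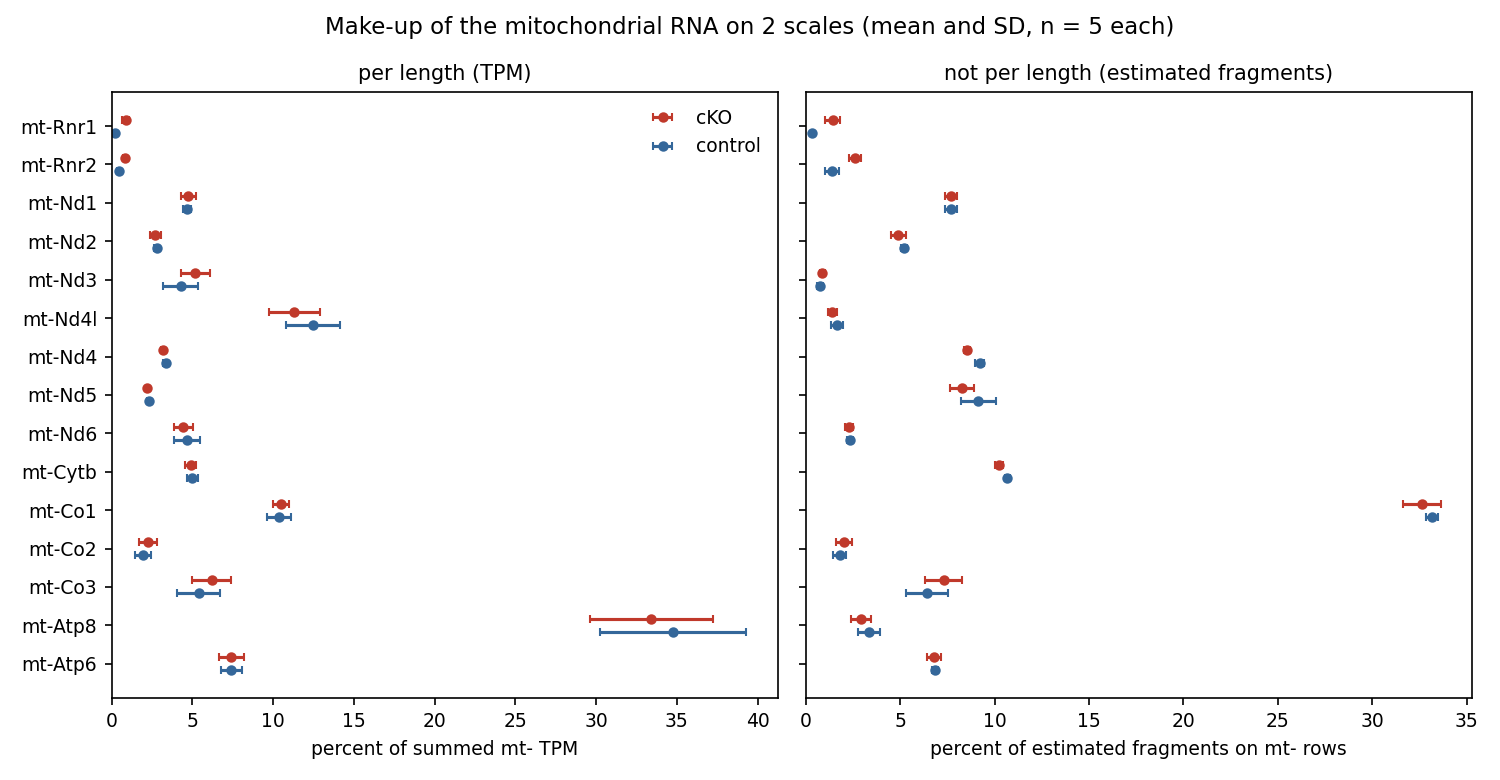
Share of each rRNA and protein gene in the mitochondrial RNA, as percent of summed mt- TPM (left, per length) and as percent of the estimated fragments on mt- rows (right, not per length), with the mean and SD over 5 libraries, cKO above (red) and control below (blue). The gene mt-Atp8 leads on the left (33.4% in cKO and 34.8% in control hearts) and mt-Co1 on the right (32.6% and 33.2%). On the right the groups of mt-Nd4 (8.54% and 9.21%) and mt-Cytb (10.2% and 10.7%) do not overlap. Each scale has a fixed total that includes the rRNAs, and these differences were not tested.

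Grouped by complex, the protein genes kept near the same proportions of summed mt- TPM. Complex I genes held 33.7% ± 1.06 in cKO hearts and 34.5% ± 1.36 in control hearts, and complex III held 4.88% ± 0.352 and 4.98% ± 0.336 in cKO and control hearts (SD, n = 5 each). Complex IV genes held 18.9% ± 2.09 in cKO hearts and 17.7% ± 2.57 in control hearts, and complex V genes held 40.8% ± 3.04 and 42.2% ± 3.92 in cKO and control hearts. Minus-strand rows held 4.45% ± 0.596 in cKO hearts and 4.66% ± 0.810 in control hearts. The groups overlapped for each of these 5 shares, none of which was tested. On the fragment scale complex III, that is mt-Cytb, held 10.2% ± 0.196 in cKO hearts and 10.7% ± 0.122 in control hearts without overlap. The gene mt-Nd4 also did not overlap on that scale, with 8.23% to 8.68% in cKO hearts and 8.75% to 9.39% in control hearts. With mt-Atp8 left out of summed TPM, complex III held 7.33% ± 0.105 in cKO hearts and 7.64% ± 0.132 in control hearts, again without overlap, and these differences were not tested. Shares have a fixed total, so a higher rRNA share (4.01% of fragments in cKO and 1.72% in control hearts) lowers those of the protein genes. Among protein genes only, complex III held 4.97% ± 0.350 of summed TPM in cKO hearts and 5.01% ± 0.346 in control hearts, with overlap.

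Within each group, 1 library differed from the rest in its make-up. In cKO replicate 7, mt-Atp8 held 27.1% of summed mt- TPM, against 33.9% to 37.1% in the other cKO libraries, and mt-Nd4l held 8.66%, against 11.5% to 12.8%. In control replicate 6, mt-Atp8 held 28.0%, against 33.2% to 39.1% in the other control libraries, and mt-Nd4l held 10.02%, against 12.1% to 14.6%. The same 2 libraries were highest in their groups for mt-Co2, mt-Co3 and mt-Nd3 as shares of summed mt- TPM and for Gm29216. Without cKO replicate 7, 13 mt- rows were called lower as deposited, mt-Co2, mt-Co3 and mt-Te joining, and without control replicate 6, 4 were called higher relative to summed mt- TPM, mt-Co3 and mt-Nd3 joining the rRNAs. The labels give no batch.

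The tRNA rows held almost nothing. Of the 22 tRNA genes, 59 to 75 bases long, 12 were listed at 0 in all 10 libraries and 1, mt-Ts1, was above 0 in all of them. Together the tRNA rows held 0.0126% ± 0.00719 of summed mt- TPM in cKO hearts and 0.0099% ± 0.00299 in control hearts (SD, n = 5 each). To estimate their fragments, the effective length of a tRNA row was set to a fixed share of its annotated length. That share was read from the values themselves, so that they come out near whole fragments is no check of it. On that setting the 22 rows summed to an estimated 4 to 15 fragments per library in cKO hearts and 8 to 16 in control hearts.

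The 3 tRNA rows that passed the filter were also the highest by mean TPM. The row of mt-Ts1, a serine tRNA, held 32.9, 20.8, 18.7, 29.1 and 30.8 TPM in cKO libraries 1, 3, 5, 6 and 7, and 35.3, 31.04, 47.0, 29.5 and 26.4 TPM in control libraries 4, 6, 8, 9 and 13. That is an estimated 3 to 6 fragments in cKO libraries and 6 to 10 in control libraries, and since mt-Ts1 lies on the minus strand, RNA of the other strand may be part of them. It fell by 1.06 ± 0.18 relative to the median gene (± SE, limma adjusted p = 0.00055) and was not called as deposited (-0.35 ± 0.18, adjusted p = 0.0888). The rows of mt-Tm, the methionine tRNA, and mt-Te, the glutamate tRNA, held at most 4 fragments in a library, and their differences of 0.04 ± 0.84 and -1.30 ± 0.86 as deposited were not called (adjusted p = 0.963 and 0.176). The row of mt-Te was called lower as deposited without cKO replicate 7 or control replicate 13 (adjusted p = 0.0413 and 0.0340), and mt-Ts1 without cKO replicate 1 (adjusted p = 0.0474).

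The nuclear genes that make, process and modify mitochondrial RNA were examined beside it, from 4 lists, with calls relative to the median gene and 20.8% of all tested genes called in each direction. The balance of all 4 lists turned with the scaling, so the counts as deposited, where 76.5% of all tested genes were called higher and 3.46% lower, stand beside them. Of the mtDNA transcription list, 10 of 11 genes were tested, 1 rose and 3 fell, with a median log2 difference of -0.36 against 0.01 over all tested genes. As deposited 4 rose and 1 fell, with a median of 0.29 against 0.63. Mterf1a, one of the mouse genes for the factor that binds downstream of the rRNA genes, averaged 2.73 ± 0.818 TPM in cKO hearts and 0.803 ± 0.310 TPM in control hearts (SD, n = 5 each). It rose by 0.61 ± 0.16 (± SE, limma adjusted p = 0.00999), and since it has a close paralog, Mterf1b, reads may be divided between them. Mterf2, of the same family, fell by 1.09 ± 0.19 (adjusted p = 0.000588), and Mrpl12, a ribosomal protein also reported to bind the polymerase, fell by 0.87 ± 0.12 (adjusted p = 9.79e-05). Polrmt, the mitochondrial RNA polymerase, and Tfam, which packages mtDNA and starts transcription, were not called, at -0.55 ± 0.22 (adjusted p = 0.0598) and -0.42 ± 0.17 (adjusted p = 0.0657). Polrmt was called lower without cKO replicate 6 or 7 or control replicate 9 (adjusted p = 0.0427, 0.0240 and 0.0323), and Tfam without control replicate 8 or 13 (adjusted p = 0.0183 and 0.0449).

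Of the 23 genes for mtRNA processing, polyadenylation, stability and decay, 1 rose and 13 fell, with a median of -0.34. As deposited 13 rose and 1 (Lrpprc) fell, with a median of 0.31, and Mtpap, Pnpt1 and Fastkd2, among the 13 that fell relative to the median gene, were called higher (0.36, 0.43 and 0.25). Lrpprc, which keeps mitochondrial mRNAs stable and polyadenylated, averaged 32.7 ± 1.68 TPM in cKO hearts and 40.8 ± 5.11 TPM in control hearts. It fell by 1.02 ± 0.07 (± SE, limma adjusted p = 1.16e-06). Ptcd3, a protein of the small mitochondrial ribosomal subunit, fell by 0.85 ± 0.08 (adjusted p = 6.34e-06). Rexo2, an exonuclease that degrades very short RNAs in mitochondria, was the gene that rose, with 106.1 ± 14.5 TPM in cKO hearts and 32.8 ± 3.98 TPM in control hearts. Its rise was 0.94 ± 0.08 relative to the median gene (adjusted p = 4.8e-06).

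The 23 genes for modification of mitochondrial rRNA and tRNA held 2 that rose and 6 that fell, with a median of -0.14. As deposited 16 rose and 2 (Trmt5 and Osgepl1) fell, with a median of 0.47, and Mettl17, lower relative to the median gene, was called higher (0.32, adjusted p = 0.0392). Trmt5, a tRNA methyltransferase, fell by 1.218 ± 0.14 (± SE, limma adjusted p = 3.5e-05), and Osgepl1, which makes the t6A base of mitochondrial tRNAs, fell by 0.98 ± 0.12 (adjusted p = 4.52e-05). The 3 rRNA ribose methyltransferases Mrm1, Mrm2 and Mrm3 were among those that fell. Nsun2, an RNA methyltransferase, rose by 0.31 ± 0.10 (adjusted p = 0.0293), and Gtpbp3, which modifies mitochondrial tRNAs, rose by 0.25 ± 0.08 (adjusted p = 0.021). Each of these 2 calls was lost without some of the libraries: Nsun2 without cKO replicate 1 or control replicate 9 or 13 (adjusted p = 0.0548, 0.0684 and 0.0568), and Gtpbp3 without cKO replicate 3 or 6 (adjusted p = 0.0532 and 0.0519).

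Of the list for mtDNA replication and nucleotide supply, 17 of 18 genes were tested, of which 0 rose and 2 fell (2 and 3 at an unadjusted p under 0.05 in limma), with a median of -0.09. As deposited 15 rose and 0 fell (15 and 0 unadjusted), with a median of 0.60. In limma these 2 were Endog, a mitochondrial nuclease, at -0.90 ± 0.14 (± SE, adjusted p = 0.000342), and Slc25a33, a pyrimidine nucleotide carrier, at -0.29 ± 0.09 (adjusted p = 0.0189), a call lost when libraries were scaled to nuclear protein-coding TPM (-0.14, adjusted p = 0.234). As deposited Slc25a33 was called higher (0.33, adjusted p = 0.0147) and Endog was not called (-0.23, adjusted p = 0.178). Polg, the mtDNA polymerase, and Twnk, its helicase, were not called, at -0.10 ± 0.08 (adjusted p = 0.345) and -0.21 ± 0.10 (adjusted p = 0.132). The amount of mtDNA was not measured.

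Chmp4b, as the deleted gene, and markers of cell types were examined beside these results. Chmp4b averaged 38.2 ± 1.42 TPM in cKO hearts and 47.4 ± 8.61 TPM in control hearts (SD, n = 5 each), with overlap. It fell by 1.01 ± 0.08 relative to the median gene (± SE, limma adjusted p = 1.87e-06). As deposited Chmp4b was also called lower, but that call was lost without a filter on low values (-0.288, limma adjusted p = 0.0658). It was also lost without cKO replicate 3, 5, 6 or 7 or control replicate 6, 8 or 9. With 1 library left out at a time, the as-deposited difference of Chmp4b ran between -0.375 and -0.209 (limma adjusted p between 0.00514 and 0.0816). All 8 cardiomyocyte markers fell and all 10 macrophage and all 7 fibroblast markers rose relative to the median gene, where 20.8% of all tested genes were called in each direction. As deposited 4 of the 8 cardiomyocyte markers fell and the other 4 were not called (Myl2 at 0.24), while all 10 macrophage and all 7 fibroblast markers rose, beside 76.5% of all tested genes called higher and 3.46% lower. Relative to the median gene all 8 endothelial markers fell, and of the smooth muscle and pericyte list 2 rose and 3 fell. As deposited no endothelial marker was called in limma (0 also at an unadjusted p under 0.05, median 0.17), and of the smooth muscle and pericyte list 4 rose and 0 fell (4 and 0 unadjusted), Rgs5 being called lower relative to the median gene and higher as deposited (0.29, adjusted p = 0.0266). The summed TPM of the macrophage list ran between 295.6 and 410.2 in cKO hearts and between 49.2 and 65.7 in control hearts, that of the fibroblast list between 1710 and 2233 and between 604 and 868.5 in cKO and control hearts, and that of the cardiomyocyte list between 34864 and 38897 and between 35249 and 43457. The defining markers of heart muscle, Myh6, Tnnt2 and Actc1, were high in every library and none of the 25 cardiomyocyte, macrophage and fibroblast markers was at 0 throughout. The summed TPM of a skeletal muscle list ran between 414 and 684 in cKO hearts and between 865 and 1285.5 in control hearts. Of that list, Ckm was called lower on both scalings, Acta1 lower relative to the median gene, and Tnnt3 and Mylpf higher as deposited. Erythroid (1737.5 to 9050 and 3445 to 5922 TPM) and brown fat sums (580 to 821 and 553 to 856) overlapped between cKO and control hearts. In whole hearts, fewer cells of a type and less RNA per cell cannot be told apart, and the part of these markers in the mitochondrial results was not tested.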

How the data were processed

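Per the labels' protocols, the libraries used 1 μg of total RNA and a VAHTS Universal V10 kit. The authors deposited 1 table of TPM for 10 hearts. The submitters' processing notes name Trimmomatic 0.32, STAR 2.7.1, Picard 1.96, HTSeq 0.11.2, DESeq2 1.22.2 and build mm10, with no role. How TPM was computed and the annotation release are not given in the sources used here. TPM keeps no stated depth. The fragments behind values were estimated from the steps of low values, and no counting interval was made.

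Members and gene lists were chosen with earlier results of these data known. The named genes are the protein and rRNA genes, tRNA rows past the filter, Chmp4b, 5 central factors (Polrmt, Tfam, Lrpprc, Polg, Twnk), up to 2 called rises and falls per pathway list and up to 3 nuclear copies. Other genes were named after their values were seen. Values were tested as log2(TPM + 1), so changes of low genes are understated, with limma 3.58.1 (mean-variance trend) in R 4.3.3. The fit was tried on simulated independent genes with the spread seen relative to the median gene. That run does not check the other scalings or genes that vary together. The size factor was the median of ratios over 16393 genes. Near copies were found with blastn 2.17.0 in GENCODE M21, which matched 92.1% of rows by unversioned ID. Replicates are separate mice, 5 per group, per the labels. Exact permutation tests used Python 3.11.15 with numpy 2.4.6. Pseudocount, filters, variance models, library weights, scalings, length and left-out libraries were varied, and copies added and estimated fragments were chosen after seeing the data.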

Additional observations from a re-analysis of the deposited data

Results flagged for a closer look

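In groups of 5 libraries, 62 values by group were examined for 1 library far from the others (gap to the nearest library over the group's range above Dixon's 95% value of 0.71), and 6 were found. Chance gives about 1 in 20, and these values are not independent of each other. In cKO replicate 7, mt-Co3 held 8.31% of summed mt- TPM, against 5.45% to 5.98% in the other cKO libraries, and mt-Nd4 held 3.37%, against 3.08% to 3.15%. In control replicate 6, mt-Co3 held 7.74%, against 4.44% to 5.16% in the other control libraries, and mt-Co2 held 2.81%, against 1.63% to 1.88%. The copy Gm29216 of mt-Co1 held 7207 TPM in control replicate 6, against 2.21 to 25 TPM in the other control libraries. In control replicate 13, the ratio of mt-Rnr1 to mt-Rnr2 was 0.623, against 0.429 to 0.472 in the other control libraries, and without that library the log2 difference of the ratio was 1.25 (exact permutation test, adjusted p = 0.0397).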

How the results depend on the processing

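Of the values that answer a comparison, 406 were alike under an alternative, 31 moved, 8 changed sign, 1 gained and 1 lost its call, and the causes were not tested. Alike meant the same direction and call for ratios and single genes, within 1.5 times for counts of calls, and within 1 SD on the log2 scale for shares. Of values of single genes, 1470 were alike, 49 lost a call, 25 gained one and 33 changed sign. No paired analysis was possible because the groups share only the replicate number 6. Without a filter, 1 mt- row was called higher and 0 lower as deposited and 5 lower relative to the median gene, and 1 gene of the modification list rose. With library weights, 1 mt- row fell relative to summed mt- TPM, 5 genes of the transcription list fell and 2 of the replication list rose. With TPM of at least 1 in all 10 libraries, 0 genes of the transcription list rose and 5 fell. Scaled to nuclear protein-coding TPM, 3 processing genes rose, and 3 replication genes rose and 1 fell. Without a trend, 1 replication gene rose. The log2 difference of the mt- share was -0.867 with TPM times length, and "protein genes only" gives no rRNA or tRNA share. With medians the ratio of mt-Rnr1 to mt-Rnr2 differed by 1.18 (adjusted p = 0.238), mt-Atp8 to mt-Atp6 by 0.001 and mt-Nd6 to mt-Nd5 by -0.001.

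Leaving out 1 library at a time, mt- rows called higher and lower numbered 1 to 2 and 10 to 13 as deposited, and 2 to 4 and 0 to 1 relative to summed mt- TPM. Relative to the median gene, 3 to 6 transcription genes fell, and 1 to 2 processing, 1 to 3 modification and 0 to 1 replication genes rose. The log2 ratio differences ran between -0.17 and 0.077 (mt-Atp8 to mt-Atp6), -0.168 and 0.044 (mt-Nd4l to mt-Nd4), -0.044 and 0.145 (mt-Nd6 to mt-Nd5) and -0.306 and -0.155 (mt-Atp6 to mt-Co3). The sign turned for Polrmt as deposited (-0.01 to 0.267) and for mt-Tm as deposited (-0.496 to 0.578) and relative to the median gene (-1.025 to 0.045). Relative to summed mt- TPM it turned for mt-Nd1 (-0.029 to 0.059), mt-Tm (-0.239 to 0.898), mt-Co1 (-0.009 to 0.057), mt-Atp8 (-0.13 to 0.02), mt-Atp6 (-0.058 to 0.04), mt-Nd6 (-0.134 to 0.017) and mt-Cytb (-0.071 to 0.007). The sign also turned for mt-Tm with a pseudocount of 0.1 (-0.513 as deposited, -0.187 relative to summed mt- TPM) or with weights relative to the median gene (0.018), and for Polg scaled to nuclear protein-coding TPM (0.071). Relative to a sum without mt-Atp8 and to TPM times length, mt-Nd1 was at -0.006 and -0.002, mt-Co1 at -0.016 and -0.012 and mt-Atp6 at -0.029 and -0.025, with mt-Atp6 at -0.02 when copies were also added. With weights, mt-Nd6 was at 0.067 and mt-Cytb at 0.014. The tRNA rows rest on 16 estimated fragments or fewer per library, and why they are few was not tested.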
